A study of Mus musculus with 10 samples.

Results

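Hair shaft keratins and keratin-associated proteins (the Krtap genes) are described here in the skin of mice that overproduce the serine protease Klk6. The group was defined by gene symbol, as every Krtap gene and 26 listed keratin, partner and regulator genes of the hair follicle, with a summed count of 50 or more over 10 libraries. That gave 75 members among the 20611 genes of the tables, 50 of them Krtap genes and 25 from the list. Of 78 matching symbols, 3 lay below the minimum, and Krt74 is not analysed here. The member just above the minimum was Krtap9-5, with 128 counts in all, and the symbol just below it was Krtap27-1, with 47. Of the 75 members, 64 passed the filter on low counts and were tested, which leaves 11 Krtap genes, with 128 to 680 summed counts, described by their values alone.

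Skin RNA was sequenced from 5 Klk6+ mice and 5 WT mice, with 3 males (libraries 1 to 3) and 2 females (libraries 4 and 5) in each genotype. Klk6+ mice carry Tetos-Klk6, which encodes murine Klk6 with a C-terminal Myc/His tag, together with the K5-tTA driver, a Tet-off transactivator under the bovine keratin 5 promoter, so the transgene is on in keratinocytes and some other stratified epithelia when doxycycline is absent. They were bred on doxycycline, because matings without it gave no transgenic pups, and doxycycline chow was returned at 10 to 11 weeks, when the mice were about to stop eating and become moribund. WT here means littermates with no transgene or with a single one that does not express, and which of these each mouse was is not stated in the sources used here. Both lines were backcrossed to C57BL/6 and used from the F4 generation on, and skin was taken at 14 to 16 weeks. Read together, these ages would put the return of doxycycline before sampling, yet Klk6 RNA was high in every Klk6+ library, as given below. The doxycycline state of the mice at sampling was not settled here. Each library is taken as 1 mouse, though the labels number the samples without stating that each came from a separate animal, and p-values measure the spread between these samples, which may be technical in part. The sources used here do not state body site, hair cycle stage or batch.

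The hair shaft is made in the bulb of a growing follicle, where matrix cells divide, move upward and fill with keratin. Type I and type II keratins pair into filaments: one set (Krt25 to Krt28 with Krt71 to Krt73) serves the inner root sheath that moulds the shaft, and another (Krt31 to Krt35 with Krt81 to Krt86) serves the shaft. Keratin-associated proteins surround the shaft filaments and are cross-linked to them, the cysteine-rich ones through disulphide bonds and the glycine- and tyrosine-rich ones as small matrix proteins. Foxn1, Hoxc13, Msx2, Lef1 and Shh are made by matrix or early differentiating cells and act before the structural proteins appear. Hair follicles cycle between growth, regression and rest, and the shaft is produced only in growth.

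Of the members, 62 had a promoter entry in the RefSeq tables for GRCm38.p6, and the 100 bases before the outermost start site are shown for 8 genes, chosen as the member of each keratin, partner or Krtap group with an entry that had the highest mean CPM. The windows are chr11:99322952-99323051 (minus strand) for Krt25, chr15:101743098-101743197 (minus) for Krt71, chr3:93442230-93442329 (plus) for Tchh and chr11:100041555-100041654 (minus) for Krt34. For the 4 Krtap genes, 1 from each genomic cluster, they are chr7:142229972-142230071 (minus) for Krtap5-5, chr10:77827071-77827170 (minus) for Krtap10-4, chr11:99556854-99556953 (minus) for Krtap3-2 and chr16:89487953-89488052 (minus) for Krtap8-1. Each is written 5′ to 3′ in the direction of transcription, and capitals mark the TATA-box letters TATAAA.
Krt25: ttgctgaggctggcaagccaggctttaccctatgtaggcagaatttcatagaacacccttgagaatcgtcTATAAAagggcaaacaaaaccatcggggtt
Krt71: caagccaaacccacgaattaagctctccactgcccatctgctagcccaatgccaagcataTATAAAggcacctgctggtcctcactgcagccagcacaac
Tchh: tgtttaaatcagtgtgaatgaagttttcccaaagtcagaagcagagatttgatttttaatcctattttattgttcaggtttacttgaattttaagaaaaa
Krt34: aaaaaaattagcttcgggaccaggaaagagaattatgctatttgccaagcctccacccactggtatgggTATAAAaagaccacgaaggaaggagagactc
Krtap5-5: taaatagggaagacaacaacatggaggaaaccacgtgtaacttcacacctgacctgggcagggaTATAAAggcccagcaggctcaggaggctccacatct
Krtap10-4: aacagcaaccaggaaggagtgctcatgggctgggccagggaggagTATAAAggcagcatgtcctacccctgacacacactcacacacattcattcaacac
Krtap3-2: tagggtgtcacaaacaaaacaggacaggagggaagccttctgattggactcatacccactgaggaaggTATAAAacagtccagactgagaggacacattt
Krtap8-1: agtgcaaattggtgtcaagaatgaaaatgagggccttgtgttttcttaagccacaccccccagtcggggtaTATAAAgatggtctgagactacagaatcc
TATAAA began 29 to 55 bases before the start in 7 of these 8 windows and was missing from that of Tchh. Searched on both strands, it lay within 250 bases before the start in 47 of the 62 members (75.8%), against 12.98% of all 27025 promoters in the table. Within 40 bases before the start it was found in 36 members (58.1%), against 3.28% of all promoters. CTTTGA, the core letters bound by the LEF1/TCF family, lay within 250 bases, on either strand, in 18 members (29.0%), against 14.1% of all promoters. Within 40 bases CTTTGA was found in 1 member (1.61%), against 1.79% of all promoters. These are matches of letters and not measured binding.

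Total counts ran between 26521019 and 39796511 in Klk6+ libraries and between 32798416 and 41970272 in WT libraries. Klk6 stood at 10293 to 14773 CPM (counts scaled to the normalized library size) in Klk6+ skin and 12.7 to 26.5 CPM in WT skin, as every label gives. The epidermal keratin Krt14 was found in all libraries, at 7637 to 12094 CPM in Klk6+ and 440 to 1289 CPM in WT. Library Klk6+ 2 stood apart in the hair genes: it was the highest of all 10 libraries for 74 of 75 members, against 9.93% of all tested genes. Its counts made up 51.3% to 96.1% of the summed count of the single Krtap genes (median 75.8%), so results are given with and without it. The 75 members include 11 untested genes, whereas the share over all genes is of tested genes only. Krtap9-5, Krtap31-1 and Krtap31-2, for example, pass the minimum of 50 counts only through Klk6+ 2. For such genes the highest place and the large share of Klk6+ 2 were fixed by the rule.

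The members varied widely among Klk6+ mice. They took 0.0991%, 0.777%, 0.00604%, 0.121% and 0.00782% of all counts in Klk6+ 1 to 5, against 0.0443%, 0.0182%, 0.0113%, 0.00699% and 0.0542% in WT 1 to 5. Klk6+ 2, 4 and 1 thus lay above every WT library and Klk6+ 3 lay below all of them, so the genotypes overlapped. On the scale log2(CPM + 0.1), a member's range over the 5 Klk6+ libraries had a median of 7.24 (0.795 to 8.87), against 0.547 for all tested genes. It passed 4 in 71 of 75 members and in 0.807% of all genes. Over the WT libraries the median range was 2.60 for the members and 0.594 for all genes. In bulk skin, fewer cells of a type and less RNA per cell cannot be told apart.

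**Figure D1:**
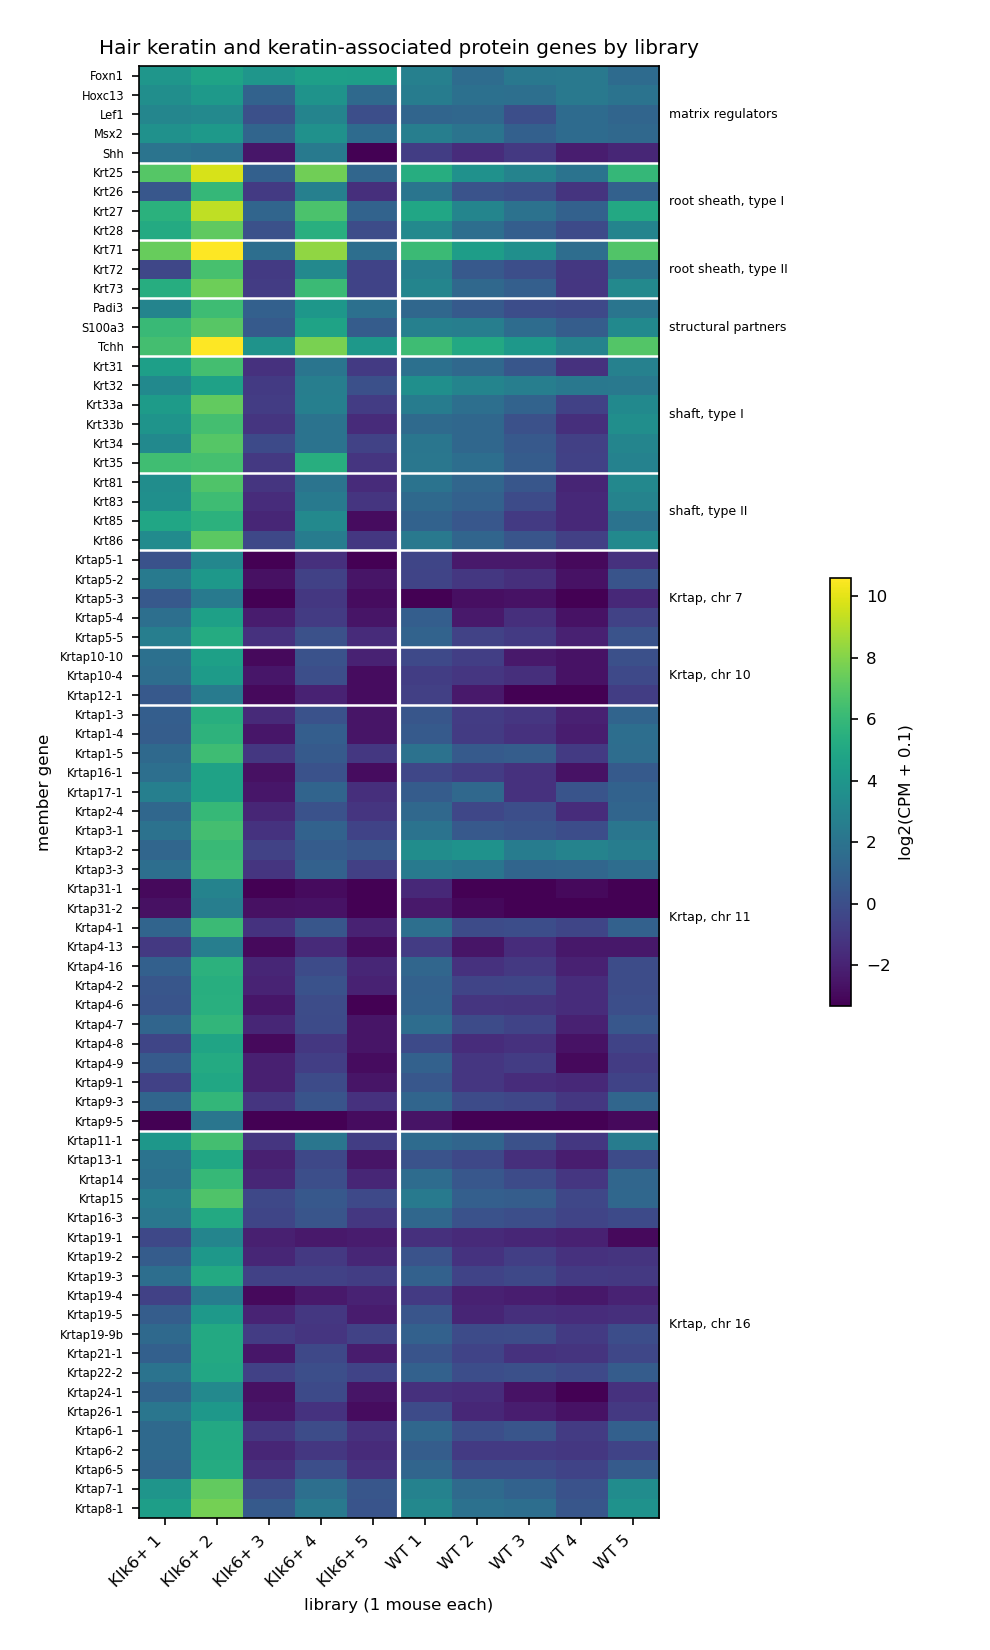
Level of each of the 75 members (rows, by role and by Krtap cluster) in each library (columns, 1 mouse each; Klk6+ left, WT right), as log2(CPM + 0.1). Klk6+ 2 is the brightest column in all rows but that of Shh, Klk6+ 3 and 5 are darker than the other Klk6+ columns in 70 rows, and WT 1 and 5 are the brighter WT columns.

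Against WT, 8 of the 64 tested members were called higher in Klk6+ skin and none was called lower (edgeR quasi-likelihood test with sex as covariate, adjusted p below 0.05). That is 12.5% of the tested members, where 37.7% of all 14861 tested genes were called higher, 35.1% lower and 72.8% either way. The 8 were the regulators Foxn1, Shh and Msx2, the inner root sheath keratins Krt28 and Krt73, the shaft keratin Krt35 and the partners Padi3 and S100a3. Every tested member had a positive estimate, with a median log2 fold change of 2.49 (0.01 to 3.68), against 0.04 over all tested genes, of which 7653 were positive. The median standard error was 1.49 for the members and 0.154 for all genes. Libraries of the genotypes did not overlap for 1 member, Foxn1, of 75, and was higher in Klk6+, against 57.0% of all genes (30.1% higher and 27.0% lower in Klk6+).

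Single libraries moved these counts. Without Klk6+ 2, only Foxn1, Padi3 and Shh were called higher, Krtap3-2 was called lower (log2 fold change -2.55), and the median fell to 0.27. The count of members called higher was 2 without Klk6+ 1, 21 without Klk6+ 3, 2 without Klk6+ 4 and 14 without Klk6+ 5. It was 4 without WT 1, 2 without WT 2, 3 without WT 3, 2 without WT 4 and 30 without WT 5. Foxn1 and Padi3 kept their calls whichever library was left out. With limma-voom and on log2(FPKM + 1), Foxn1 was the 1 member called, and on log2(FPKM + 0.1) Padi3 was called beside it. The other 6 calls were thus made by edgeR and DESeq2 but not by these fits on a log scale, of which limma-voom also starts from the counts.

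Foxn1 was the member whose level separated the genotypes. This forkhead factor, whose loss gives the hairless nude mouse, lies at chr11:78357577-78386558 (minus strand, GRCm38, GENCODE M21). It was at 15.6, 26.9, 15.5, 22.8 and 22.4 CPM in Klk6+ 1 to 5, against 6.57, 2.91, 4.66, 4.80 and 2.78 CPM in WT 1 to 5. All 5 Klk6+ libraries lay above all 5 WT libraries, Klk6+ 3 and 5 included. Its log2 difference of 2.25 ± 0.27 passed the test (adjusted p = 3.95e-05), and over all alternatives the difference ran between 1.62 and 2.43 with adjusted p no higher than 0.000211. Foxn1 is also made outside the bulb, in suprabasal keratinocytes of the epidermis, and cell-cycle and interfollicular genes given below differed between the genotypes in the same libraries. Their part in its difference was not tested.

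The other regulators split the Klk6+ mice. Shh (chr5:28456815-28467256, minus strand), the secreted signal of the hair matrix, was at 3.97, 3.34, 0.079, 5.00 and 0 CPM in Klk6+ 1 to 5 and at 0.482, 0.241, 0.389, 0.117 and 0.179 CPM in WT 1 to 5. In counts these were 140, 96, 3, 162 and 0 reads in Klk6+ and 21, 10, 13, 4 and 6 reads in WT. Klk6+ 1, 2 and 4 were above every WT library, while Klk6+ 3 and 5 were below every WT library, and this was the only member highest in Klk6+ 4. Shh rose by a log2 difference of 3.17 ± 1.10 (adjusted p = 0.0241), a call that was lost without Klk6+ 1, Klk6+ 4, WT 2, WT 4 or WT 5, with adjusted p up to 0.129.

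Msx2 (chr13:53466884-53473074, minus strand), a homeobox factor of the matrix, was at 13.04, 17.4, 2.18, 12.9 and 2.79 CPM in Klk6+ skin and at 6.09, 3.97, 1.85, 2.81 and 2.45 CPM in WT skin. Klk6+ 3 and 5 sat inside the WT range. Msx2 rose by 1.498 ± 0.57 (adjusted p = 0.0360), and the call was lost without any one of Klk6+ 1, Klk6+ 2, Klk6+ 4, WT 2, WT 3, WT 4 and WT 5, with adjusted p up to 0.156. Hoxc13, the homeobox factor that binds hair keratin promoters, was at 11.6, 17.6, 1.95, 13.8 and 2.61 CPM in Klk6+ and 3.26 to 5.53 CPM in WT, with a log2 fold change of 1.19 ± 0.56 (adjusted p = 0.0787). Lef1, the Wnt effector of the matrix and the hair-forming cells above it, was at 8.30, 9.30, 0.948, 7.75 and 0.931 CPM in Klk6+ and 0.897 to 2.84 CPM in WT, with 1.36 ± 0.67 (adjusted p = 0.0903). Both had Klk6+ 1, 2 and 4 above all WT libraries, and neither passed the test.

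**Figure D2:**
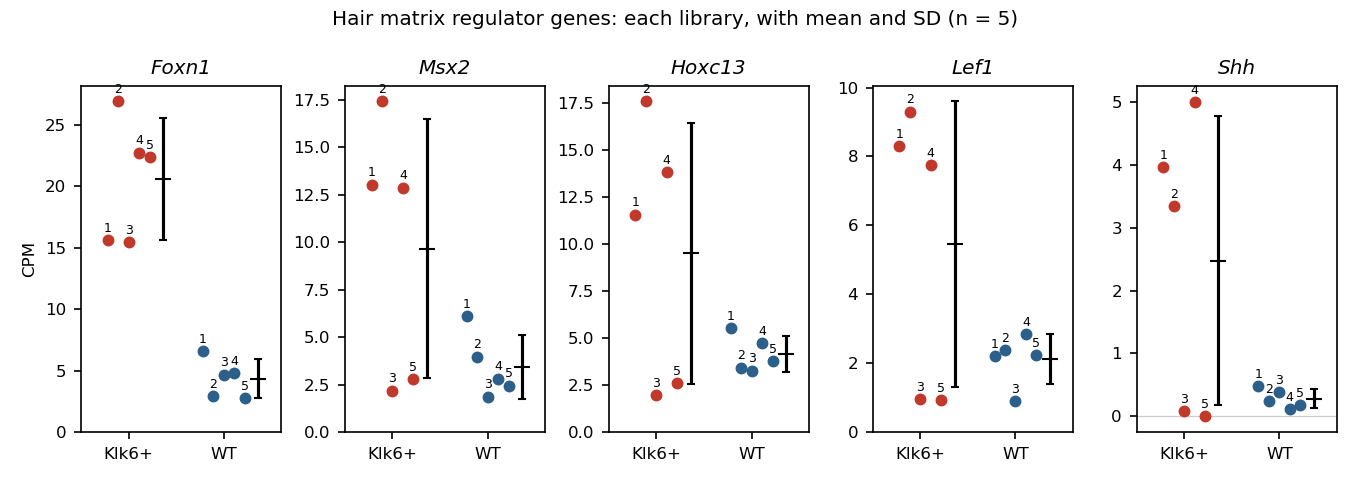
CPM of the 5 regulator genes in each Klk6+ (left) and WT (right) library, numbered by mouse, with bars for mean and SD (n = 5 each). Foxn1 is higher in all Klk6+ libraries, whereas for Msx2, Hoxc13, Lef1 and Shh libraries Klk6+ 1, 2 and 4 are high and Klk6+ 3 and 5 lie within or below the WT range.

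Inner root sheath keratins were among the most abundant members. Krt71, a type II keratin of the whole inner root sheath (chr15:101733949-101743109, minus strand), was at 161, 1531, 3.21, 304 and 3.17 CPM in Klk6+ 1 to 5, against 71.3, 21.4, 12.3, 3.01 and 110 CPM in WT 1 to 5. Its type I partner Krt25 was at 122, 855, 1.79, 190 and 2.31 CPM in Klk6+, against 40.4, 13.1, 7.39, 3.89 and 61.6 CPM in WT. In both genes Klk6+ 1, 2 and 4 exceeded every WT library, and Klk6+ 3 and 5 were near the lowest WT library. Their log2 fold changes, 3.02 ± 1.65 for Krt71 (adjusted p = 0.123) and 3.05 ± 1.55 for Krt25 (adjusted p = 0.0993), did not pass the test.

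The 2 called members of this set lay in the middle of its abundance. Krt28 (chr11:99364872-99374903, minus strand), type I, was at 36.05, 144, 1.0003, 43.8 and 0.857 CPM in Klk6+ and 9.23, 3.11, 1.70, 0.761 and 7.50 CPM in WT. Krt73 (chr15:101793308-101802346, minus strand), a type II keratin of the sheath cuticle, was at 39.9, 183, 0.447, 70.0 and 0.596 CPM in Klk6+ and 7.83, 2.53, 1.76, 0.351 and 9.20 CPM in WT. Both overlapped between genotypes through Klk6+ 3 and 5. Krt28 rose by 3.19 ± 1.25 (adjusted p = 0.0407) and Krt73 by 3.68 ± 1.43 (adjusted p = 0.0394). Without any one of Klk6+ 1, Klk6+ 2, Klk6+ 4, WT 1, WT 2, WT 3 and WT 4 both calls were lost, with adjusted p up to 0.187 for Krt28 and 0.190 for Krt73.

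Krt26 and Krt72 were the members of the sheath set that departed from the others in Klk6+ 1. Krt26 was at 1.25, 61.0, 0.421, 6.51 and 0.261 CPM in Klk6+ and 4.09, 1.06, 0.897, 0.322 and 1.91 CPM in WT. Krt72, a cuticle keratin of the sheath, was at 0.680, 93.3, 0.421, 9.26 and 0.596 CPM in Klk6+ and 6.52, 1.40, 0.897, 0.380 and 3.82 CPM in WT. Klk6+ 1 thus fell within the WT range for both, while it exceeded all WT libraries for the other 5 sheath keratins. Krt27, at 46.2, 599, 2.21, 101 and 2.05 CPM in Klk6+ and 1.87 to 33.0 CPM in WT, kept to the pattern of Krt25. None of Krt26 (2.71 ± 1.34, adjusted p = 0.0921), Krt72 (2.59 ± 1.49, 0.140) and Krt27 (3.02 ± 1.52, 0.0971) passed the test, and the estimate of Krt72 was -0.57 without Klk6+ 2.

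Of the partner proteins, Padi3 and S100a3 were called. Padi3 (chr4:140785365-140810648, minus strand), the enzyme that converts arginine to citrulline in trichohyalin, was at 7.74, 77.4, 1.82, 16.1 and 3.39 CPM in Klk6+ and 2.43, 1.42, 0.867, 0.732 and 4.09 CPM in WT. Klk6+ 3 and 5, at 1.82 and 3.39 CPM, fell inside the WT range, the other Klk6+ libraries above it. Padi3 rose by 3.33 ± 1.06 (adjusted p = 0.0159); adjusted p was 0.0800 with limma-voom and 0.0615 on FPKM with a pseudocount of 1.

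S100a3 (chr3:90560578-90602702, plus strand), a calcium-binding protein of the human hair cuticle, was at 69.4, 126, 1.45, 26.6 and 1.56 CPM in Klk6+ and 6.55, 6.09, 2.87, 1.64 and 9.76 CPM in WT. Unlike the sheath keratins it was higher in Klk6+ 1 than in Klk6+ 4. It rose by 2.76 ± 1.13 (adjusted p = 0.0483), and the call was lost without any one of Klk6+ 1, Klk6+ 2, Klk6+ 4, WT 1, WT 2, WT 3 and WT 4, with adjusted p up to 0.143, and also with relative log expression scaling, where adjusted p was 0.0523. Tchh, trichohyalin itself, which embeds the filaments of the inner root sheath and medulla, was at 86.2, 1495, 13.9, 220 and 17.3 CPM in Klk6+ and 75.4, 32.9, 17.04, 7.32 and 118 CPM in WT. Only Klk6+ 2 and 4 exceeded every WT library, and its change of 2.61 ± 1.39 had adjusted p = 0.114.

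Among the 10 shaft keratins Krt35 alone was called. Krt35 (chr11:100092193-100096241, minus strand), a type I keratin of the lower cortex and cuticle that appears early in the shaft, was at 79.6, 90.3, 0.395, 42.0 and 0.335 CPM in Klk6+, against 4.41, 3.15, 1.55, 0.556 and 7.02 CPM in WT. Klk6+ 1 was nearly as high as Klk6+ 2, whereas Klk6+ 3 and 5 were below every WT library. It rose by 3.53 ± 1.34 (adjusted p = 0.0348), and leaving out any one of Klk6+ 1, Klk6+ 2, Klk6+ 4, WT 1, WT 2, WT 3 and WT 4 ended the call, with adjusted p up to 0.164. Krt85, its early type II counterpart, was at 29.6, 48.2, 0.184, 9.14 and 0.0373 CPM in Klk6+ and 2.00, 1.28, 0.419, 0.205 and 3.82 CPM in WT, with 3.16 ± 1.49 (adjusted p = 0.0783).

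The later keratins of the cortex behaved alike in the libraries. Krt31 was at 22.8, 87.4, 0.290, 4.17 and 0.410 CPM in Klk6+ and 3.38, 2.48, 1.23, 0.293 and 6.72 CPM in WT. Krt86 was at 10.4, 133, 0.711, 5.53 and 0.373 CPM in Klk6+ and 4.73, 2.21, 1.17, 0.527 and 9.62 CPM in WT. Klk6+ 1 and 2 were above all WT libraries in both, and Klk6+ 4 fell inside the WT range. Krt33a, Krt33b, Krt34, Krt81 and Krt83 shared this order, with Klk6+ 2 at 75.8 to 153 CPM, and the 7 had log2 fold changes of 2.14 to 2.41 with adjusted p of 0.208 to 0.334. Values of single genes here are uncertain, because 17.8% to 43.3% of their 50-base stretches also occur in another near-identical hair keratin, and how reads matching more than 1 gene were counted is not stated in the sources used here.

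Krt32, a keratin of the shaft cuticle, was the exception in the shaft set, at 9.55, 24.4, 0.421, 6.17 and 0.969 CPM in Klk6+ and 12.0, 7.68, 6.10, 4.59 and 4.75 CPM in WT. Only Klk6+ 2 was above the WT libraries, and WT 4, the lowest WT library for most members, was close to WT 5. It had 0.10 ± 0.77 on the log2 scale (adjusted p = 0.911), with a sign that was positive in the edgeR fits on all libraries and in DESeq2 but negative with limma-voom and on FPKM.

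No Krtap gene was called in either direction among the 39 tested (37.7% of all genes higher, 35.1% lower); the smallest adjusted p was 0.0593, for Krtap19-3, which was also the 1 Krtap gene with unadjusted p under 0.05. Other settings called some of them higher. DESeq2 called 2 (Krtap10-4 and Krtap19-3), though 17 of the 64 tested members had no adjusted p there and could not be called. With genotype alone 15 Krtap genes were called, and with no count filter 5, all 5 among the genes otherwise untested. Leaving out 1 library called 10 higher without Klk6+ 3, 2 without Klk6+ 5 and 12 without WT 5, while without Klk6+ 2 none was called higher and Krtap3-2 was called lower. Their log2 fold changes were all positive, between 0.01 and 3.00 with a median of 2.45, and their standard errors were 1.05 to 1.99. Summed over the 50 genes the level was 167, 2093, 11.8, 49.4 and 12.7 CPM in Klk6+ 1 to 5, against 105, 51.0, 35.3, 23.6 and 87.2 CPM in WT 1 to 5. Klk6+ 2 was thus far above all others, Klk6+ 1 was above the WT libraries, Klk6+ 4 fell among them and Klk6+ 3 and 5 lay below them. For single genes, Klk6+ 3 was below the lowest WT library in 29 of 50 and Klk6+ 5 likewise in 29, for which no share over all genes was computed.

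The Krtap genes lie in 4 clusters. The 5 on chromosome 7 (142174535 to 142304594) are Krtap5 genes, a family made in the cuticle of the human shaft. Krtap5-5 there was at 6.12, 36.9, 0.290, 0.988 and 0.224 CPM in Klk6+ and 2.02, 0.578, 0.419, 0.146 and 1.07 CPM in WT, with 2.57 ± 1.33 (adjusted p = 0.105). Krtap5-2 was at 5.07, 17.003, 0.0526, 0.556 and 0.0745 CPM in Klk6+ and 0.620, 0.385, 0.269, 0.0585 and 1.10 CPM in WT, with 2.45 ± 1.502 (adjusted p = 0.164). The 3 on chromosome 10 (77720599 to 77837252) belong to Krtap10 and Krtap12, again cuticle families in the human follicle. Krtap10-10 was at 3.34, 23.9, 0.0263, 1.02 and 0.149 CPM in Klk6+ and 0.735, 0.506, 0.0897, 0.0585 and 0.956 CPM in WT, with 2.91 ± 1.52 (adjusted p = 0.107). In all 3 genes Klk6+ 1 and 2 exceeded every WT library, and Klk6+ 4 did so for Krtap10-10 only.

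The 22 genes on chromosome 11 (99550130 to 99993994) are mostly cysteine-rich proteins and were the most concentrated in Klk6+ 2. Krtap3-1 was at 3.71, 85.9, 0.316, 2.01 and 0.596 CPM in Klk6+ and 3.81, 1.40, 1.11, 0.878 and 4.30 CPM in WT, with 2.17 ± 1.63 (adjusted p = 0.249). Klk6+ 1 did not exceed the WT libraries here, and it did so in 2 of the 22 genes, Klk6+ 4 in none. Krtap9-5 was the extreme, with 123 of its 128 counts in Klk6+ 2.

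Krtap3-2 differed from most of its neighbours in WT skin. It was at 2.30, 68.6, 0.579, 1.57 and 1.19 CPM in Klk6+, against 11.3, 13.3, 5.71, 7.26 and 5.85 CPM in WT. All WT libraries thus lay between Klk6+ 2 and the other 4 Klk6+ libraries. Its fitted change was 0.01 ± 1.26 on the log2 scale (adjusted p = 0.993), and its sign turned with relative log expression scaling (-0.037) and with library totals alone (-0.064). Without Klk6+ 2 it was -2.55 and called lower, and 28.9% of its 50-base stretches occur in another gene.

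The 20 genes on chromosome 16 (88610705 to 89571183) include the small glycine- and tyrosine-rich families Krtap6, Krtap7, Krtap8, Krtap19, Krtap21 and Krtap22. Krtap8-1 was at 22.4, 202, 1.42, 4.75 and 1.12 CPM in Klk6+ and 8.77, 3.51, 3.1997, 1.1998 and 13.3 CPM in WT, with 2.11 ± 1.66 (adjusted p = 0.272). Krtap7-1 was at 15.3, 151, 0.842, 3.33 and 1.23 CPM in Klk6+ and 7.05, 2.72, 2.00, 1.02 and 10.8 CPM in WT, with 2.06 ± 1.67 (adjusted p = 0.285). Klk6+ 1 exceeded every WT library for all 20 genes of this cluster, Klk6+ 4 for 1 of them. All 5 Klk6+ libraries did so in 30.1% of all tested genes, and the share for a single library was not computed. Among the 50 Krtap genes 14 share 20% or more of their 50-base stretches with another gene, so their single values are uncertain.

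**Figure D3:**
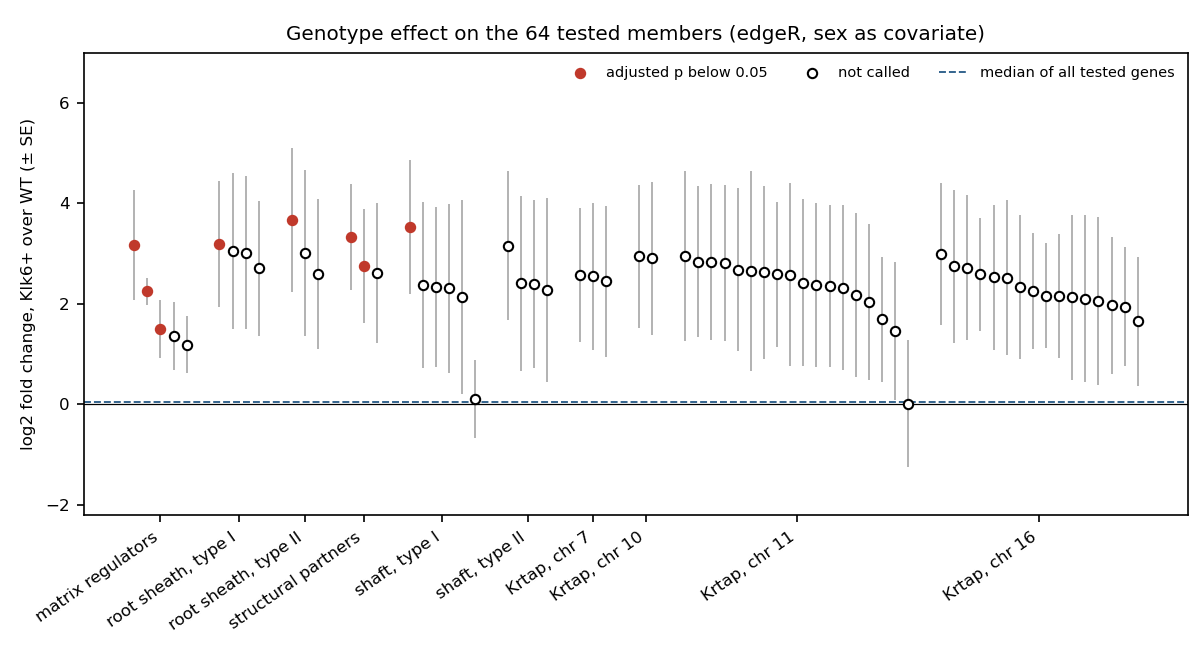
Log2 fold change (Klk6+ over WT, edgeR with sex as covariate) of the 64 tested members, with model standard errors as bars, grouped by role and Krtap cluster; filled points have adjusted p below 0.05 and the dashed line is the median of all tested genes (0.04). All points are above 0 and 8 are filled, none of them a Krtap gene.

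The order of Klk6+ 1 and Klk6+ 4 differed by the role of the gene. For inner root sheath keratins the median level was 10.5% of Klk6+ 2 in Klk6+ 1 and 19.8% in Klk6+ 4, and Klk6+ 4 was the higher of the pair for all 7. For shaft keratins the medians were 16.2% in Klk6+ 1 and 4.56% in Klk6+ 4, and Klk6+ 1 was the higher for all 10. For Krtap genes they were 7.43% and 2.27%, with Klk6+ 1 the higher for 45 of 50. The regulators stood at 74.8% of Klk6+ 2 in Klk6+ 1 and 83.3% in Klk6+ 4, beside medians of 101.6% and 100.4% over all tested genes.

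Within the shaft set, the early keratins were highest in Klk6+ 1 relative to Klk6+ 2: Krt35 reached 88.1% and Krt85 61.4%, against 7.84% to 39.2% for the other 8. The Krtap clusters also differed in Klk6+ 1, with medians of 16.6% on chromosome 7, 15.6% on chromosome 10, 9.16% on chromosome 16 and 3.57% on chromosome 11. In Klk6+ 4 the same medians were 3.22%, 4.26%, 2.13% and 1.95%. Levels under 20% of Klk6+ 2 were found for 57 members in Klk6+ 1 and 63 in Klk6+ 4, against 0.707% and 0.801% of all tested genes. Each of these is a comparison of single mice, a male in Klk6+ 1 and a female in Klk6+ 4, with no replicate check.

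**Figure D4:**
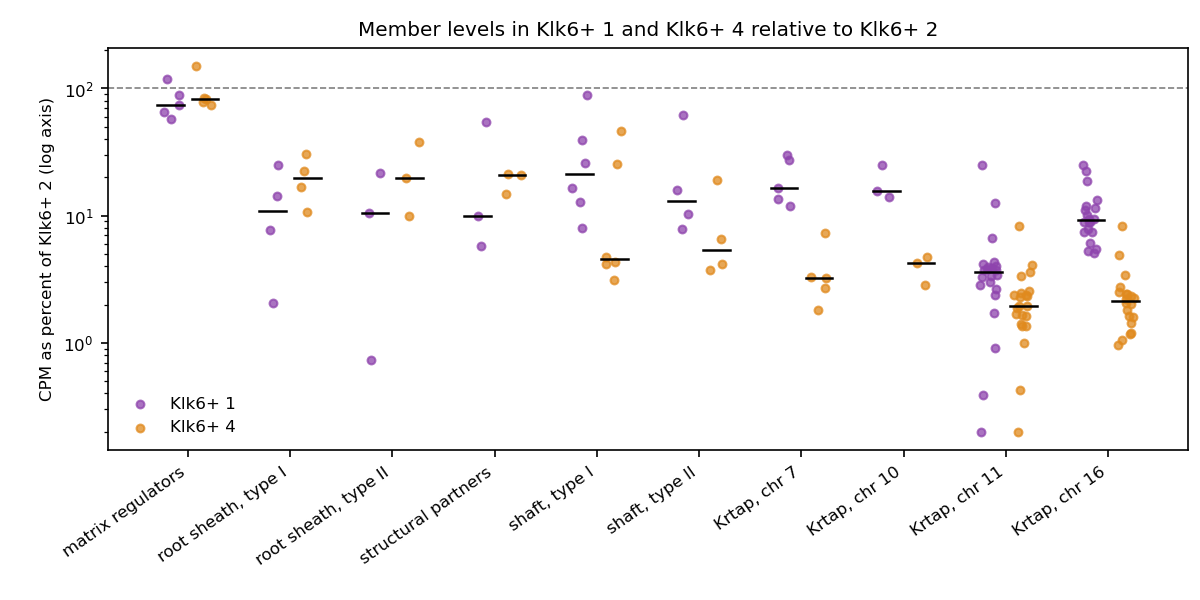
Level (CPM) of each member in Klk6+ 1 (left column of each pair) and Klk6+ 4 (right column) as a percent of its level in Klk6+ 2, on a log axis, by role and Krtap cluster; horizontal bars are medians and the dashed line is 100%. A member at 0 (Krtap9-5) is drawn at a small floor value in both columns, as a log axis has no 0. Klk6+ 4 is above Klk6+ 1 for the inner root sheath keratins and below it for the shaft keratins and most Krtap genes.

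Klk6+ 3 and 5 were the low libraries. Both were below Klk6+ 1, 2 and 4 for 70 of 75 members, against 20.8% of all tested genes, and the exceptions were Foxn1, Krtap9-5, Krtap19-1, Krtap19-4 and Krtap19-9b. Their members stood at a median of 0.443% of Klk6+ 2 in Klk6+ 3 and 0.509% in Klk6+ 5. Klk6+ 3 was below the lowest WT library for 38 members and Klk6+ 5 for 40. The shares of all genes for these counts of a single library were not computed. All 5 Klk6+ libraries lay below every WT library in 27.0% of all tested genes. The male Klk6+ 3 and the female Klk6+ 5 carried Klk6 at 14773 CPM and 10293 CPM, the highest and the lowest of the 5 Klk6+ libraries.

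The WT mice also differed among themselves, over a smaller range. WT 1 or WT 5 was the highest WT library for 72 of 75 members and WT 4 the lowest for 58, for which no share over all genes was computed. Relative to WT 1, WT 5 had a median of 195% for shaft keratins, 156% for the partners, 109% for inner root sheath keratins, 58.6% for Krtap genes and 42.3% for the regulators, against 97.4% for all tested genes. WT 5 is a female and WT 1 a male, each a single mouse.

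In males alone, 22 of the 64 tested members were called higher in Klk6+ and none lower, where 33.4% of all genes were called higher, 31.0% lower and 64.4% either way. Of the 22, 19 were Krtap genes, among them Krtap19-3 (3.58 ± 1.23, adjusted p = 0.0288) and Krtap26-1 (4.22 ± 1.45, adjusted p = 0.0291), and the others were Foxn1, Padi3 and S100a3. This count rests on few mice: it was 29 without Klk6+ 1, 2 without Klk6+ 2, 62 without Klk6+ 3, 7 without WT 1, 1 without WT 2 and 1 without WT 3. In females 1 member, Foxn1, was called (2.57 ± 0.44, adjusted p = 0.000971), where 31.2% of all genes were called higher, 28.4% lower and 59.6% either way. The female count was 2 without Klk6+ 2 or without Klk6+ 5.

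The median log2 fold change was 3.87 in males and -0.33 in females. The difference between the sexes was itself not called for any member: the genotype-by-sex test gave 0 of 64 (smallest adjusted p = 0.539, 0 at unadjusted p under 0.05, and 0 with DESeq2) and 0 of all 14861 genes (0.0%). With 3 males and 2 females a genotype, and with Klk6+ 2 among the males, the values of the sexes are those of few single mice. Krt35, as an example, had 79.6, 90.3 and 0.395 CPM in Klk6+ males and 42.0 and 0.335 CPM in Klk6+ females.

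Per length, Krt71 had the highest mean level of all members in both genotypes. In FPKM (length-scaled fragments, with a depth scaling that is not stated), Krt71 was at 70.5, 644, 1.37, 139 and 1.42 in Klk6+ and 31.8, 8.96, 5.29, 1.33 and 47.8 in WT. Krt25, Krtap8-1 and Krt27 came next in both genotypes, with mean FPKM of 136, 102 and 94.4 in Klk6+ and 15.0, 13.7 and 9.91 in WT. S100a3, Krtap7-1 and Tchh followed in Klk6+, with mean FPKM of 74.9, 68.3 and 54.7, against 9.03, 9.68 and 7.67 in WT. Their order differed in WT, where Krtap3-2, with a mean of 14.9 FPKM in Klk6+ and 8.96 FPKM in WT, stood above Tchh. The spread between libraries exceeds the steps of these orders, and Klk6+ 2 held the highest value of each.

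Among the shaft keratins the leading gene was not the same in the genotypes. Krt35 had the highest mean FPKM of the 10 in Klk6+, at 45.3, 49.2, 0.219, 24.9 and 0.195 FPKM in Klk6+ and 2.55, 1.71, 0.871, 0.319 and 3.98 FPKM in WT. Krt32 had the lowest mean of the 10 in Klk6+ and the highest in WT, 4.79 FPKM in Klk6+ and 4.11 FPKM in WT. Regulators were low, with Foxn1 at 4.26 to 7.30 FPKM in Klk6+ and 0.780 to 1.86 FPKM in WT.

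Keratins and structural genes of the follicle outside the group were tested beside it. Of 4 further hair keratins tested, 1 was called higher and none lower: Krt84, a cuticle and tongue keratin, at 2.78, 6.97, 3.97, 3.33 and 7.86 CPM in Klk6+ and 0.0585 to 0.758 CPM in WT (3.97 ± 0.63, adjusted p = 0.000252). Krt82, a cuticle keratin, followed Klk6+ 2 instead, at 4.08, 17.6, 0.263, 2.10 and 0.224 CPM in Klk6+ and 0 to 1.16 CPM in WT (adjusted p = 0.0611). Of 16 cuticle, cortex and sheath proteins, 11 rose and 2 fell, beside 37.7% of all tested genes called higher and 35.1% called lower, and their median log2 fold change was 2.27, against 0.04 over all genes. The risers included Gsdma (3.16 ± 0.25), a gasdermin, and the cadherin Dsc2 (2.93 ± 0.24), both also made in the epidermis and both higher in all 5 Klk6+ libraries. In 6 of the 16, Klk6+ 3 and 5 lay below the other Klk6+ libraries, against 20.8% of all tested genes. Among these were the riser Dsg4, at 3.88, 12.5, 0.290, 2.96 and 0.708 CPM in Klk6+ 1 to 5, and Tchhl1 and Crym, neither called (adjusted p = 0.110 and 0.376). The rest were the risers Krt79, Liph and Lpar6, in which Klk6+ 3 and 5 still exceeded every WT library. Krt79, for example, was at 2065 and 1668 CPM in Klk6+ 3 and 5, against at most 559 CPM in WT.

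Counts of upstream genes called higher or lower are read against the same 37.7% and 35.1% of all tested genes. Of the counts that follow, 7 of 16 higher and 12 of 31 lower lie near those shares, while 2 of 16 lower and 6 of 31 higher lie below them. Of 16 tested transcription factors and regulators of the matrix outside the group, 7 rose and 2 fell, led by Ovol1 (2.37 ± 0.16) and Prdm1 (2.60 ± 0.33), which are also made in epidermis, while Nfatc1 fell (-1.27 ± 0.22). Of 31 follicle signalling genes, 6 rose and 12 fell. Those that fell included Igf1 (-1.56 ± 0.15), Eda (-1.26 ± 0.14), Bmp4 (-2.01 ± 0.23) and Wnt3 (-1.83 ± 0.23). Bmp4 was at 2.46 to 5.78 CPM in Klk6+ and 12.99 to 20.5 CPM in WT. Of 14 dermal papilla genes 2 rose and 4 fell, with summed levels of 141 to 226 CPM in Klk6+ and 177 to 245 CPM in WT. Both Klk6+ 3 and 5 lay below the other Klk6+ libraries in 9 of the 16 transcription factors and regulators. The same held for 11 of the 31 signalling genes and 9 of the 14 dermal papilla genes, against 20.8% of all tested genes.

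Markers of other cell types moved with genotype in the same libraries, and their part in the results for the hair genes was not tested. Their counts too stand beside 37.7% of all tested genes called higher and 35.1% called lower. Of 9 melanocyte genes 6 rose and 2 fell, and their sum was 324, 248, 116, 374 and 69.2 CPM in Klk6+ 1 to 5, against 51.4 to 97.2 CPM in WT. Klk6+ 3 and 5 were the lowest Klk6+ libraries there too, as they were for the sebaceous gland genes (8 of 9 rose), which summed to 21377, 16754, 9587, 16259 and 5396 CPM in Klk6+ and 3110 to 6959 CPM in WT. The 8 cell-cycle genes all rose, at 425 to 515 CPM in Klk6+ and 39.7 to 107 CPM in WT, with no low value in Klk6+ 3 or 5. Interfollicular genes rose in 4 of 8 and fell in 4, at 18608 to 28664 CPM in Klk6+ and 6852 to 19076 CPM in WT. Hair follicle stem cell genes rose in 0 and fell in 5 of 9 (434 to 694 CPM in Klk6+, 1846 to 3818 CPM in WT). All 8 skeletal muscle genes fell (3272 to 6477 CPM in Klk6+ against 42775 to 60977 CPM in WT), as did all 6 adipocyte genes (833 to 1509 CPM in Klk6+ against 2266 to 3225 CPM in WT). No gene of these lists was at 0 in every library.

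**Figure D5:**
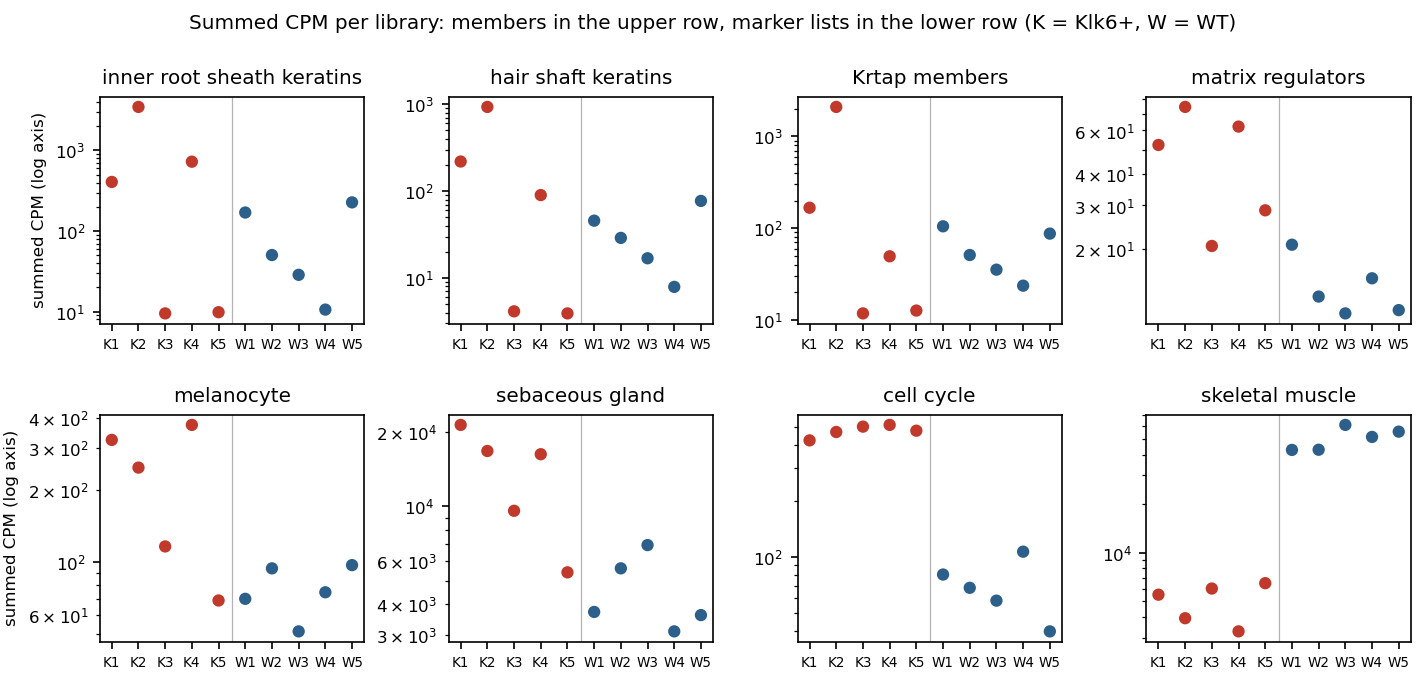
Summed CPM in each library (K1 to K5, Klk6+; W1 to W5, WT; log axis, ranges differ between panels) of member groups in the upper row and of marker lists in the lower row. Klk6+ 3 and 5 are low for the inner root sheath, shaft and Krtap genes and lowest among Klk6+ libraries for melanocyte and sebaceous genes, but not for cell-cycle genes.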

How the data were processed

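RNA from skin of 10 samples, each taken as 1 mouse, was made into polyA-selected libraries with a kit that does not mark strand and read as 50-cycle single ends, per the labels' protocols. The authors deposited a table per mouse with a read count per gene, as whole numbers without normalization, and an FPKM value; the sources used here do not state the scaling total of the FPKM. Per the submitters' processing notes, the tools and builds were TopHat2, SAMtools, HTSeq, Cufflinks (2.2.1), GRCm38 and mm10, named without roles. Annotation version, strand setting and the counting of reads matching more than 1 gene are not stated there or in the labels.

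Deposited counts were fitted in R 4.3.3 with edgeR 4.0.16 (quasi-likelihood F test, trimmed mean of M values, filterByExpr with minimum count 10, 14861 genes), with genotype and sex as terms; sexes were compared in a model of 4 genotype-by-sex means. P-values were adjusted over the whole table by Benjamini-Hochberg and called below 0.05. CPM uses the scaled library sizes; errors of fold changes are model standard errors. DESeq2 1.42.0, limma 3.58.1 (voom, and log2(FPKM + 1) or log2(FPKM + 0.1)), other scalings and filters, and each library left out were tried as alternatives. The scripts were tested on simulated data in which all genes shared a single spread. Error rates for genes that vary as widely as these members were not tested. Replicate numbers follow the order of the samples and pair nothing.

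The members and the gene lists were chosen with earlier results of these data known. All non-Krtap members are named; of the Krtap genes, the 3 of highest mean CPM in each class, and of each list up to 4 genes of smallest p. Classes by protein composition had been planned; genomic clusters were used instead, as protein sequences are not used here. Other Krtap genes, and the keratin Krt84 beside its list, are named for a call or a count and were chosen after their values were seen. Positions are from GENCODE M21, and shared 50-base stretches were counted between its transcripts. Promoter windows and sequences are from RefSeq (GRCm38.p6).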

Additional observations from a re-analysis of the deposited data

Results flagged for a closer look

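For each member named here, the gap between the most extreme of the 5 libraries of a genotype and its nearest neighbour was divided by the range of that genotype. Of 86 such groups, 34 passed the Dixon limit of 0.71. That limit flags about 1 in 20 groups by chance where values are normally distributed. The shares here were taken on CPM, not on a log scale, and the genes share the same libraries. The rate of 1 in 20 therefore does not apply, and the flags only describe the spread in CPM. For Krtap9-5, which passed the minimum count only through Klk6+ 2, the flag was fixed by the rule. In 31 of the 34 the library that stood apart was Klk6+ 2, which was the highest.

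For the inner root sheath and its partners, the share of the range was 0.779 for Krt25, 0.897 for Krt26, 0.834 for Krt27, 0.803 for Krt71, 0.905 for Krt72, 0.861 for Tchh and 0.811 for Padi3. For the shaft keratins it was 0.742 for Krt31, 0.875 for Krt33a, 0.836 for Krt33b, 0.925 for Krt34, 0.898 for Krt81, 0.844 for Krt83 and 0.924 for Krt86. Krt28, Krt73, S100a3, Krt32, Krt35, Krt85 and the 5 regulators were not among the 31. Of the 8 called members, Padi3 alone was thus flagged for Klk6+ 2. The measure uses the gap to the nearest library, so it does not show whether a call depends on Klk6+ 2. Without Klk6+ 2, Krt28, Krt73, Krt35, Msx2 and S100a3 lost their calls, while Foxn1, Padi3 and Shh kept theirs.

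For the Krtap genes it was 0.839 for Krtap5-5, 0.867 for Krtap5-4, 0.861 for Krtap10-10, 0.846 for Krtap10-4, 0.752 for Krtap12-1, 0.975 for Krtap3-2, 0.960 for Krtap3-1, 0.963 for Krtap3-3, 0.894 for Krtap8-1, 0.904 for Krtap7-1, 0.955 for Krtap15 and 0.991 for Krtap9-5. Among the Krtap genes named after their values were seen it was 0.923 for Krtap19-3, 0.750 for Krtap26-1, 0.922 for Krtap19-1, 0.910 for Krtap19-4 and 0.935 for Krtap19-9b. The other 3 cases were in WT skin. For Krt33b, WT 5, at 11.5 CPM, stood above the other WT libraries with 0.780 of the range, and WT 1 did so with 0.780 for Krtap19-3 and 0.811 for Krtap19-4. Each library was left out in turn in the values given with the results.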

How the results depend on the processing

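No paired analysis was possible because the replicate numbers were given in the order of the samples and the labels pair no mice across genotypes. Members called higher (8 as reported) were 13 with no count filter, 24 with genotype alone, 15 with DESeq2 (17 had no adjusted p), 1 with limma-voom, 1 on log2(FPKM + 1) and 2 on log2(FPKM + 0.1); with relative log expression scaling and with minimum count 20 there were 7, and with library totals alone 8. The median was 1.11 with limma-voom, 0.880 on log2(FPKM + 1) and 0.941 on log2(FPKM + 0.1). A robust edgeR fit, chosen after seeing the data, gave 8. Leaving out 1 library gave 2 to 30 called higher, 0 to 1 lower, a median log2 fold change of 0.27 to 3.48, and 10319 to 10744 genes called of all (10813 as reported). In males, 22 became 51 with DESeq2 and 1 to 62 with 1 library left out; in females, 1 became 2 with DESeq2 and 1 to 2 with 1 library left out. The interaction gave 0 in each of these settings. Log2 fold changes turned negative for Krt32 (-0.96 limma-voom, -0.32 and -0.75 on FPKM with pseudocounts 1 and 0.1; with 1 library left out -0.60 to 0.36, negative without Klk6+ 2, Klk6+ 4 (-0.26), WT 2 (-0.03) or WT 3 (-0.09)), Krtap3-2 (-0.037 with relative log expression, -0.064 with totals, -1.56 limma-voom, -1.01 and -1.46 on FPKM; -2.55, called, without Klk6+ 2, -0.27 without WT 1, -0.20 without WT 2 and -0.47 without WT 3, with 0.45 the highest) and Krtap3-3 (-0.32 limma-voom, -0.31 on FPKM with 0.1, -1.10 to 2.02 with 1 library left out, lowest without Klk6+ 2). Krt72 (-0.57 to 3.43), Krtap3-1 (-0.47 to 2.94) and Krtap15 (-0.16 to 3.01) were negative without Klk6+ 2 and highest without WT 5. The cause was not tested. Over the named members, 641 alternative values kept direction and call, 61 lost the call, 45 gained it and 22 reversed. The 11 untested Krtap genes did not pass the filter on low counts, and Klk6+ 2 held 61.3% to 96.1% of the summed count of each.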
